A study of Saccharomyces cerevisiae with 6 samples.

Results

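De novo purine synthesis is represented here by 10 genes of the budding yeast Saccharomyces cerevisiae: ADE4, ADE5,7, ADE8, ADE6, ADE2, ADE1, ADE13, ADE16, ADE17 and ADE12. They were chosen by name as the enzymes that build inosine monophosphate (IMP) and turn it into adenosine monophosphate (AMP), and were found through their systematic names among the 6256 genes with a probe on the array. The choice was made with earlier results of these data known. All 10 had a probe, and all 10 were well above background on each of the 6 arrays, so no filter on dim probes removed a member. Transcripts were measured on one-colour Agilent arrays in F3, a mutant resistant to sulfur dioxide that was obtained by evolutionary engineering, and in its reference strain, with 3 cultures and 3 arrays for each. Both strains were grown without any sulfite named in the labels, in yeast minimal medium at 30 °C with shaking at 150 rpm, and were harvested in early exponential growth at an OD600 of about 1.0. A separate growth label describes overnight culture in 100 mL of YPD, a rich medium, and does not say how it relates to the minimal medium. The identity of the reference strain, the mutations of F3 and whether the medium held adenine are not given in the sources used here. The question the comparison addresses is how expression in the resistant strain differs from that in its reference.

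The pathway builds the purine ring step by step on phosphoribosyl pyrophosphate (PRPP), drawing on glutamine, glycine, aspartate, carbon dioxide and folate-bound one-carbon units. It ends in IMP, from which one branch leads to AMP and another to guanosine monophosphate. In yeast most ADE genes are activated by the transcription factors Bas1 and Pho2, are repressed when adenine is supplied, and respond to the pathway intermediates SAICAR and AICAR, which promote the Bas1-Pho2 interaction.

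Each level is a log2 signal from which the 75th percentile of its own array was subtracted, and a gene that "rose" or "fell" in F3 did so on this scale. The 75th percentile itself ranged between 8303 and 9517 intensity units in F3 and between 2790 and 4949 in the reference. A second scale set each array to the mean of the 7 spike-in RNAs that were well above background throughout, and on it the median difference of all 5948 tested genes was 1.76, against 0.05 with the main scaling. The spike-in value of each member is therefore given beside its main value, and the distance of each gene from the median of all genes is the same under both scalings. On the spike-in scale limma gave the same SE, 0.30, to all members and companion genes. It is a shared value and not the spread of a single gene. The F3 arrays lay on 1 slide and the reference arrays on 2 others, and no scan day was shared by the strains, so strain, slide and scan day cannot be told apart. In the quality marks of the extraction software the negative controls were outside their range on the 3 F3 arrays and inside it on the 3 reference arrays, and the mark for a good spot grid was likewise unset on the 3 F3 arrays and set on the 3 reference arrays.

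Relative to the 75th percentile, expression of the purine route was lower in F3 than in the reference at 9 of its 10 genes. By limma, 9 members fell (38.2% of all tested genes did), 1 rose (41.5%), and 4 of the 9 fell by at least 2-fold (16.2%). The strains did not overlap at any of the 10 members on this scale, as was the case for 82.4% of all tested genes. On the spike-in scale they overlapped at ADE4, ADE5,7, ADE1 and ADE13, the members that fell by at least 2-fold with the main scaling. The median difference of the members was −0.90 on the log2 scale (0.05 over all tested genes), and their differences ranged from −2.10 for ADE5,7 to 0.34 for ADE16. On the spike-in scale none of the members was called lower by limma (4.29% of all genes were) and 6 were called higher (85.6% of all genes were). The median of the members was 0.81 there, against 1.76 for all genes. At an unadjusted p under 0.05 the members lower were 0 as well, and the share of all genes at that threshold was not computed. Under both scalings 9 of the 10 members lay below the median of all genes and ADE16 lay above it. Bulk RNA does not show whether fewer cells carry a transcript or each cell carries less of it.

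**Figure D1:**
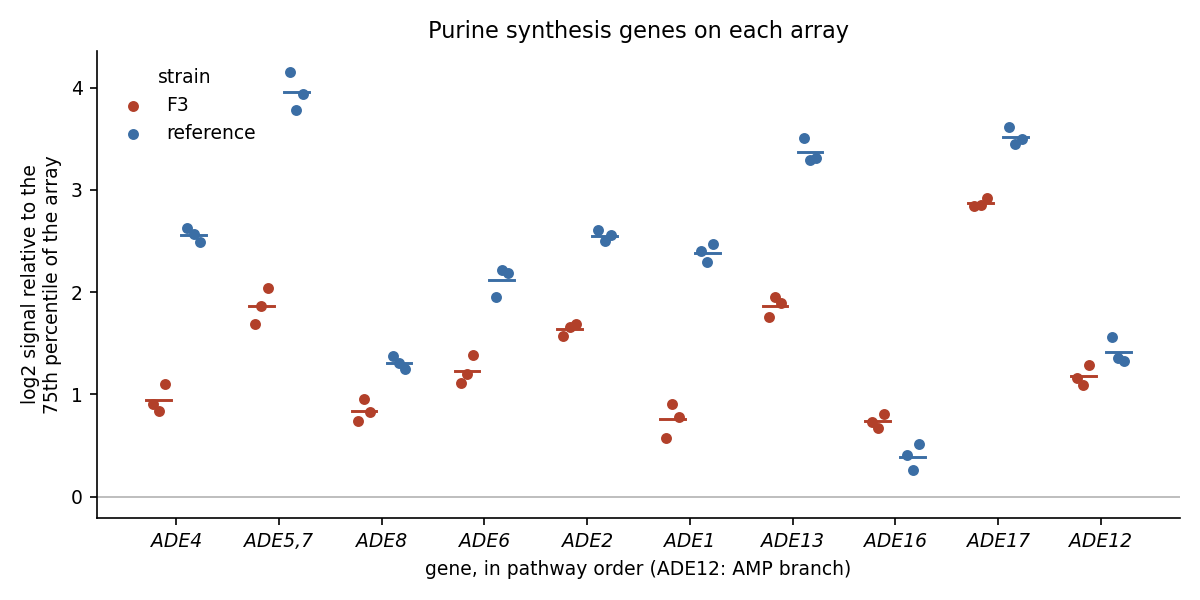
Log2 signal minus the 75th percentile of the array (vertical axis) for the 10 purine synthesis genes in pathway order (horizontal axis), with 3 F3 arrays at the left of each gene and 3 reference arrays at its right. Points are arrays and lines are means; on this scale F3 lies below the reference at 9 genes and above it at ADE16, with no overlap at any of the 10, and the spike-in values are in the plot of strain differences.

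ADE4 encodes the amidotransferase that commits PRPP to the pathway and is inhibited by its purine end products. Its level was 0.91, 0.83 and 1.10 on the F3 arrays, against 2.62, 2.57 and 2.49 on the reference arrays. Each F3 value lay well below each reference value, and the gap was many times the spread within a strain. ADE4 fell by 1.62 in F3 (SE 0.09, 3.06-fold lower, adjusted p = 5.0e-07), while on the spike-in scale its difference was 0.10 (SE 0.30, adjusted p = 0.758). Only 8.6% of tested genes had a lower difference.

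ADE5,7 encodes a bifunctional enzyme that carries out the glycinamide ribotide synthetase and the aminoimidazole ribotide synthetase reactions. Its level was 1.69, 1.87 and 2.04 on the F3 arrays, against 4.15, 3.79 and 3.94 on the reference arrays. Its difference was the lowest of the members, at −2.10 (SE 0.12, 4.27-fold lower, adjusted p = 6.6e-07). It was also the member with a negative difference after spike-in scaling (−0.39, SE 0.30), where it was not called (adjusted p = 0.204). The unscaled signals of its probe were 30655, 33033 and 34142 intensity units on the F3 arrays, against 49676, 67429 and 76136 on the reference arrays. The F3 signals were below all reference signals before any scaling, although the F3 arrays were brighter as a whole. ADE5,7 was the only member for which this held. Unscaled signals overlapped between the strains at ADE4, ADE6, ADE2, ADE1 and ADE13, and were higher in F3 at ADE8, ADE12, ADE16 and ADE17.

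ADE8, ADE6 and ADE2 act in the middle of the route, and each fell by less than 2-fold. ADE8, the glycinamide ribotide transformylase that takes a one-carbon unit from folate, had levels of 0.74, 0.95 and 0.83 on the F3 arrays, against 1.37, 1.31 and 1.24 on the reference arrays. The strains were close but separate, with a difference of −0.47 (SE 0.08, adjusted p = 7.8e-04), or 1.24 on the spike-in scale. ADE6, the glutamine-using formylglycinamidine ribotide synthetase, has the longest coding sequence of the members at 4077 bp in the RefSeq R64 table. Its level was 1.11, 1.20 and 1.39 on the F3 arrays, against 1.95, 2.22 and 2.19 on the reference arrays. Its difference was −0.89 (SE 0.11, 1.85-fold lower, adjusted p = 6.1e-05), or 0.82 on the spike-in scale.

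ADE2 encodes the carboxylase of aminoimidazole ribotide, and its loss is known for the red pigment that builds up in mutant colonies. Its level was 1.57, 1.66 and 1.69 on the F3 arrays, against 2.61, 2.50 and 2.56 on the reference arrays. ADE2 had the tightest replicates in the reference, with an SD of 0.05 (n = 3). It fell by 0.91 in F3 (SE 0.07, 1.88-fold lower, adjusted p = 4.9e-06), or lay 0.80 above the reference on the spike-in scale (adjusted p = 0.0083). After each gene's levels were set relative to its own mean on the reference arrays, ADE2 lay closest of the 10 members to the mean profile of the group, with a root mean square distance of 0.04 over the 6 arrays. ADE16 lay farthest from it at 0.93 on the same centred scale.

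ADE1, the SAICAR synthetase that adds aspartate and whose loss also gives red colonies, fell by over 3-fold. Its level was 0.58, 0.91 and 0.78 on the F3 arrays, against 2.40, 2.29 and 2.47 on the reference arrays. The F3 arrays scattered more, with an SD of 0.17, against 0.09 in the reference (n = 3 each), yet remained far below it. The difference was −1.63 (SE 0.10, adjusted p = 9.5e-07), and 0.08 on the spike-in scale (adjusted p = 0.800).

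ADE13 encodes adenylosuccinate lyase, which acts both before IMP, on SAICAR, and after it, in the last step to AMP. Its level was 1.76, 1.95 and 1.90 on the F3 arrays, against 3.51, 3.29 and 3.32 on the reference arrays. With a difference of −1.50 (SE 0.09, 2.84-fold lower, adjusted p = 8.1e-07) it was the fourth member past 2-fold, while spike-in scaling gave 0.21 (adjusted p = 0.501). ADE12, adenylosuccinate synthase, is its partner in the branch to AMP and had the smallest difference of the 10. Its level was 1.16, 1.09 and 1.29 on the F3 arrays, against 1.56, 1.36 and 1.32 on the reference arrays. The lowest reference value was just above the highest F3 value. Its difference of −0.23 (SE 0.09, adjusted p = 0.0445) was past the threshold by a small margin. The call was lost in 8 of the other settings, with adjusted p-values over all settings between 9.4e-07, at 1.48 on the spike-in scale, and 0.132. It was lost without F3 replicate 1 (−0.22) or 2 (−0.19), without reference replicate 1 (−0.16) or 2 (−0.26), and with the replicate number as a block (−0.23, adjusted p = 0.0743).

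The last steps to IMP, AICAR transformylase and IMP cyclohydrolase, are carried out by the isozymes Ade16 and Ade17, and relative to the 75th percentile their genes went in opposite directions, while on the spike-in scale both lay above the reference. ADE17 had levels of 2.84, 2.85 and 2.92 on the F3 arrays, against 3.62, 3.45 and 3.50 on the reference arrays. It fell by 0.65 (SE 0.08, adjusted p = 5.8e-05), or by 0.37 in the authors' deposited table and 0.39 with quantile normalization, and lay 1.06 above the reference on the spike-in scale. ADE16 had levels of 0.73, 0.67 and 0.81 on the F3 arrays, against 0.41, 0.26 and 0.51 on the reference arrays. All F3 values were above all reference values, and ADE16 rose by 0.34 (SE 0.09, adjusted p = 0.0064), or by 2.05 on the spike-in scale. The unscaled signals of ADE16 were between 14423 and 15792 intensity units in F3, against 3696 to 7099 in the reference.

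The difference between the isozymes can be read within each array, where the scaling between arrays cancels. The log2 signal of ADE17 minus that of ADE16 was 2.11, 2.18 and 2.11 on the F3 arrays, against 3.21, 3.19 and 2.98 on the reference arrays. The mean was 2.14 ± 0.04 in F3 and 3.13 ± 0.13 in reference cultures (SD over 3 arrays), so the balance moved toward ADE16 by 0.99 in F3. A two-sided exact permutation test gave p = 0.10, which is the smallest value that 3 arrays against 3 allow. The size of the shift was smaller with quantile normalization (−0.78) and in the authors' deposited table (−0.76). The probes of the pair were taken as specific, and their sequences were not analysed here.

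**Figure D2:**
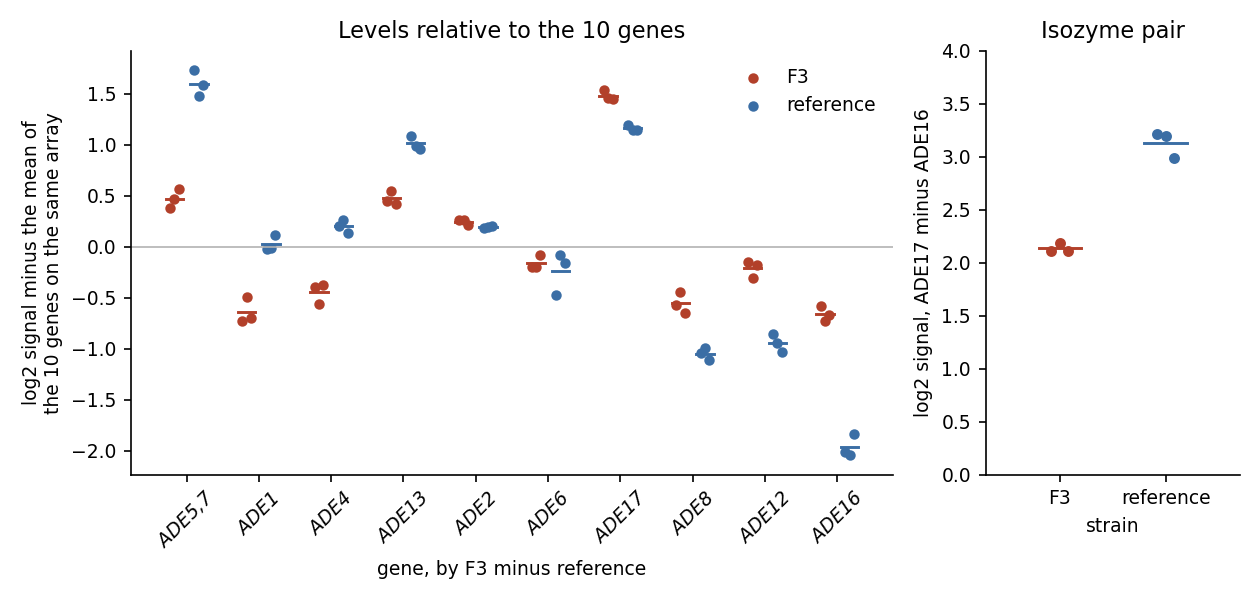
Left, log2 signal of each gene minus the mean of the 10 genes on the same array (vertical axis), with genes ordered by F3 minus reference (horizontal axis); right, ADE17 minus ADE16 on each array by strain. Points are arrays and lines are means; ADE5,7 stood at 0.47 in F3 and 1.60 in the reference and ADE16 at −0.66 in F3 and −1.97 in the reference, while the isozyme difference was 2.14 in F3 and 3.13 in the reference.

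The same within-array view ordered all 10 genes. Relative to the mean of the 10 on the same array, ADE5,7 stood at 0.47 ± 0.09 in F3 and 1.60 ± 0.13 in reference cultures (SD over 3 arrays, here and below). ADE4 stood at −0.44 ± 0.10 in F3 and 0.20 ± 0.06 in the reference, ADE1 at −0.64 ± 0.13 in F3 and 0.03 ± 0.08 in the reference, and ADE13 at 0.48 ± 0.07 in F3 and 1.01 ± 0.07 in the reference. ADE2 and ADE6 followed the mean of the group: ADE2 stood at 0.25 ± 0.03 in F3 and 0.19 ± 0.01 in the reference, and ADE6 overlapped between the strains. The largest shift upward in F3, relative to the mean, was that of ADE16 (−0.66 ± 0.07 in F3, −1.97 ± 0.11 in the reference). ADE12 came next (−0.21 ± 0.08 in F3, −0.94 ± 0.08 in the reference). It was followed by ADE8 (−0.55 ± 0.10 in F3, −1.05 ± 0.06 in the reference). The same direction held, by less, for ADE17 (1.48 ± 0.05 in F3, 1.16 ± 0.03 in the reference). These values are given without a test, because a shift relative to the group depends on which genes are in it.

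By size of the strain difference the members thus fell into a sequence that did not follow the order of the steps. The 95% intervals of ADE5,7 (−2.38 to −1.82), ADE1 (−1.86 to −1.40), ADE4 (−1.82 to −1.41) and ADE13 (−1.71 to −1.30) overlapped from one gene to the next. They did not reach those of ADE2 (−1.08 to −0.75) and ADE6 (−1.13 to −0.65), which overlapped each other. ADE17 (−0.83 to −0.47), ADE8 (−0.66 to −0.28) and ADE12 (−0.45 to −0.02) overlapped their neighbours in this order, and ADE16 (0.14 to 0.55) stood apart from ADE12. The pairwise differences between members were not tested. Some neighbours in this order changed places in other settings. With quantile normalization ADE8 (−0.41) lay below ADE17 (−0.39), as it did in the authors' deposited table (−0.41 and −0.37). The genes lie on 7 chromosomes, read from the systematic names. ADE4 and ADE17 share chromosome XIII, ADE13 and ADE16 share XII, and ADE5,7 and ADE6 share VII, with strain differences of −1.62 and −0.65, −1.50 and 0.34, and −2.10 and −0.89 in these pairs.

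**Figure D3:**
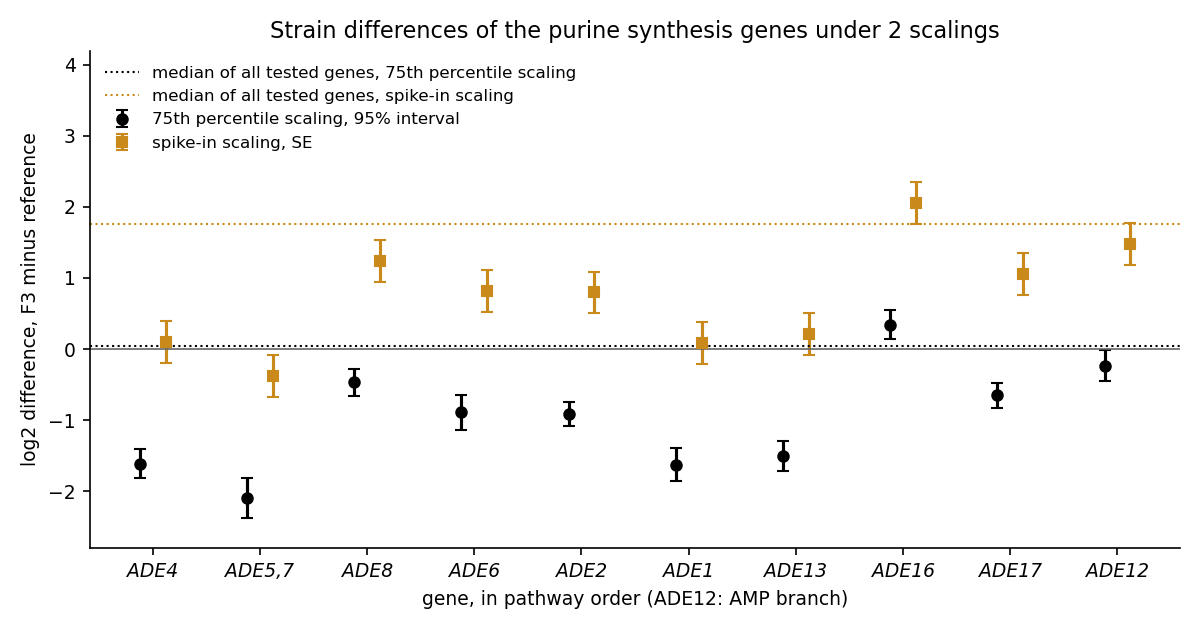
Log2 difference, F3 minus reference (vertical axis), of the 10 genes in pathway order (horizontal axis) with the 75th percentile scaling (circles, 95% interval) and on the spike-in scale (squares, SE); dotted lines are the medians of all tested genes. The members range from −2.10 to 0.34 with the first scaling and from −0.39 to 2.05 with the second, and 9 of them lie below the median of all genes under each.

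Of the 3 regulators of the ADE genes, 2 fell (38.2% of all tested genes did) and 1 rose (41.5%) relative to the 75th percentile. On the spike-in scale only PHO2 was called, as higher, as were 85.6% of all tested genes. BAS1 had levels of −2.64, −2.48 and −2.52 on the F3 arrays, against −1.33, −1.13 and −1.40 on the reference arrays, and fell by 1.26 (SE 0.09, adjusted p = 2.7e-06), or lay at 0.45 on the spike-in scale (adjusted p = 0.140). PHO2, its partner, had levels of −1.80, −1.88 and −1.88 on the F3 arrays, against −2.88, −3.01 and −3.01 on the reference arrays, and rose by 1.11 (SE 0.08, adjusted p = 1.7e-06), or by 2.82 on the spike-in scale. GCN4, the activator of amino acid synthesis genes that also acts on some ADE genes, fell by 1.86 (SE 0.08), and its spike-in value of −0.15 was not called.

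Around the route, 52 genes of 8 companion lists were tested; 42 fell (38.2% of all tested genes did), 6 rose (41.5%) and 4 did not pass the threshold, while on the spike-in scale 3 were called lower (4.29% of all genes) and 26 higher (85.6%). The counts of each list below stand against the same shares of all genes. Like the members, the lists were chosen with earlier results of these data known, so the counts describe the lists and do not test them. All 5 PRPP synthetase genes fell, with a median of −1.50 (0.21 on the spike-in scale) and PRS3 at −2.18 (−0.47 on the spike-in scale, not called). Of the 17 genes of the folate one-carbon supply 12 fell and 1 rose, with a median of −0.85 (0.87 on the spike-in scale). SHM2 and MTD1, which are known Bas1 targets, fell (−1.50 and −1.59) and lay at 0.21 and 0.12 on the spike-in scale. They had the lowest differences of this list, which ranged from −1.59 to 0.73. SHM1 (−1.50, SE 0.09) and FOL1 (−1.48, SE 0.15) lay within the SE of SHM2 (0.08), so the rank does not set SHM2 apart. Which other genes of the list are Bas1 targets was not examined. The histidine genes HIS1 and HIS7 fell by 1.65 and 1.12 (0.06 and 0.59 on the spike-in scale), while HIS4, which is outside the naming rule and was picked after its value was seen, rose by 0.53 (2.24 on the spike-in scale). All 3 genes of glutamine and aspartate supply fell (median −0.81, or 0.90 on the spike-in scale), among them the mitochondrial aspartate aminotransferase AAT1 by 2.23 (−0.52 on the spike-in scale, not called).

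Downstream of IMP, all 5 genes of the GTP branch fell, where 38.2% of all tested genes did, with a median of −1.81 (−0.10 on the spike-in scale). IMD4 fell by 3.22 and stayed lower on the spike-in scale (−1.51), although its probe may not separate it from the close copies IMD2 and IMD3. Among 7 genes of adenine nucleotide interconversion 5 fell and 2 rose, with a median of −0.90 (0.81 on the spike-in scale). AAH1, adenine deaminase, had levels of −3.17, −2.51 and −2.81 on the F3 arrays, against 1.47, 1.60 and 1.44 on the reference arrays. It fell by 4.33 (SE 0.15, 20.1-fold lower, adjusted p = 4.4e-08) and by 2.62 on the spike-in scale. ISN1, the IMP-specific nucleotidase, and ADK2, a mitochondrial adenylate kinase, rose by 1.31 and 1.42, or by 3.02 and 3.13 on the spike-in scale. Of 9 salvage and uptake genes 8 fell and 1 rose (median −1.18, or 0.53 on the spike-in scale), with the purine-cytosine permease FCY2 at −2.89 (SE 0.08), or −1.18 on the spike-in scale.

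**Figure D4:**
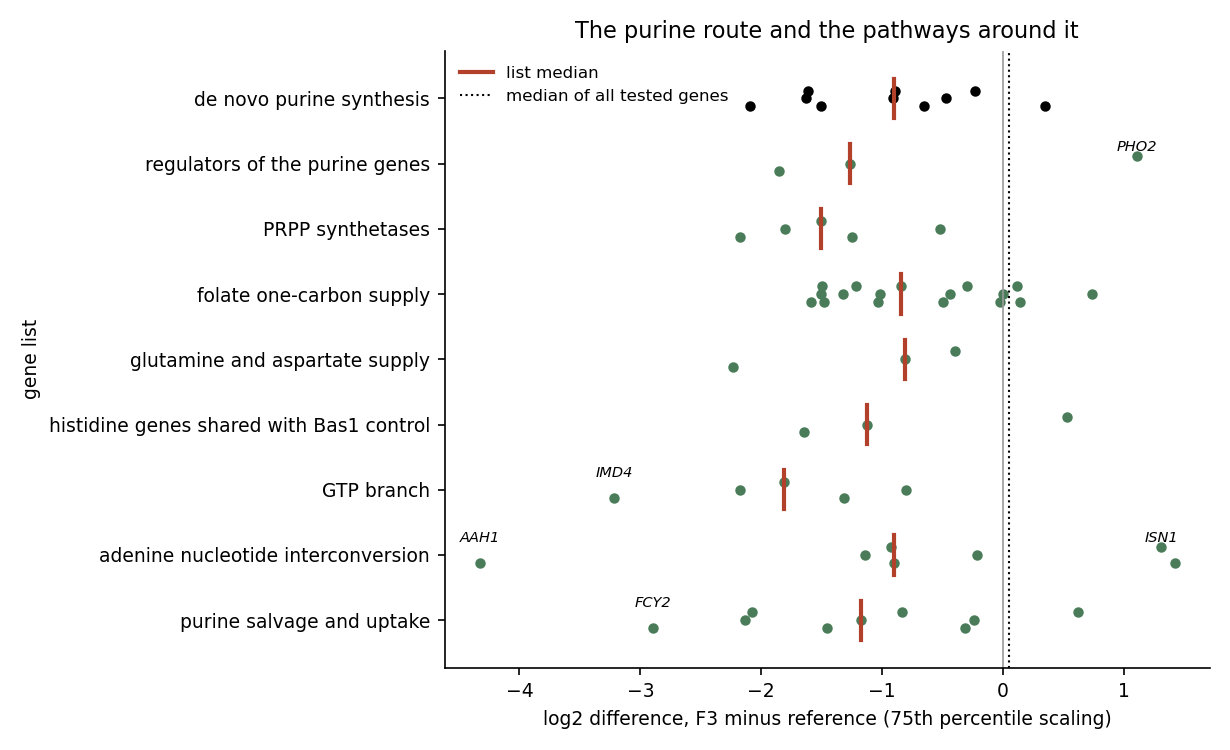
Log2 difference, F3 minus reference, with the 75th percentile scaling (horizontal axis) for each gene of the purine route and of 8 lists around it (vertical axis). Points are genes, red lines are list medians and the dotted line is the median of all tested genes; every list median lies below it, and AAH1 is the lowest point at −4.33.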

How the data were processed

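RNA of 3 F3 and 3 reference cultures was hybridised to 1 array each; per the labels' protocols, 0.2 µg was labelled with Cy3. Groups and replicate numbers came from the sample titles. Spot signals came from Agilent Feature Extraction, version 10.7.3.1 per the file headers and 9.1 per the submitters' processing notes. The processed signal in the deposited files is an intensity that was background-subtracted and detrended within each array. The authors' deposited table holds log2 values centred on each probe's median over the arrays, with the scaling between arrays unknown, and served as an alternative.

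Each probe's level was the mean log2 processed signal over its 2 spots minus the array's 75th percentile. The 5948 of 6256 genes well above background on at least 3 arrays were tested together with limma 3.58.1 in R 4.3.3 (F3 minus reference, two-sided, Benjamini-Hochberg adjustment over all tested genes, threshold 0.05), after a check on simulated arrays. Replicates are separate cultures per the design text, so p-values set strains against the spread between cultures; the number of arrays limits the precision. Names came from the RefSeq R64 table, which matched 5756 probes by locus tag; no coordinates are given because the array's build is not the table's. The IMP dehydrogenase gene of the companion lists without an entry there was left out. The members and lists were chosen with earlier results of these data known. Genes outside the members were eligible for naming if they are one of the 3 regulators, or if called with a log2 difference of at least 1 in a companion list, and the text names a part of these. The 5 genes nearest to the mean member profile, after centring each gene on its reference arrays, were also named. Normexp used the median spot signal, offset 50, since the files used here hold no mean signal column.

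Same-numbered arrays deviated from their strain means with correlations of −0.15, 0.08 and −0.25, so the numbers were not taken to pair the cultures.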

Additional observations from a re-analysis of the deposited data

How the results depend on the processing

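Of the 140 values of the 10 members in the 14 settings other than spike-in scaling, 132 kept both their direction and their side of the threshold, and 8, all of ADE12, lost their call. Part of this count was fixed in advance. Another filter on dim probes and the replicate block leave each member's difference unchanged, so there only the call could move. The slide as a random block hardly moved the differences either (ADE4 at −1.6150, against −1.6151 in the main setting). Spike-in scaling called 255 genes lower and 5092 higher over the genome, 0 members lower and 6 higher, and 3 companion genes lower and 26 higher. It reversed ADE4 (0.10), ADE8 (1.24), ADE6 (0.82), ADE2 (0.80), ADE1 (0.078), ADE13 (0.21), ADE17 (1.06) and ADE12 (1.48). Among the other named genes it reversed BAS1 (0.45), DFR1 (0.38), FCY21 (0.53), FCY22 (0.25), FOL1 (0.23), FOL2 (0.69), HAM1 (0.57), HIS1 (0.060), HIS7 (0.59), IMD2 (0.39), MET7 (0.68), MIS1 (0.49), MTD1 (0.12), PRS4 (0.46), PRS5 (0.21), SHM1 (0.21), SHM2 (0.21), PUL3 (0.73), PRO3 (0.74), RPS23B (0.78), BET1 (0.73) and RPS26B (0.77). Its construction moves all genes by the same amount, and which scaling is nearer to the RNA content of the cells was not tested. Leaving out 1 array at a time gave between 8 and 9 members lower, 1 higher, 4434 to 4651 genes called over the genome and an isozyme shift between −1.07 and −0.95. With the replicate number as a block, 4595 genes and 9 members, 8 of them lower, were called, and the isozyme shift stayed −0.99 (exact permutation over pairs, p = 0.25, the smallest value 3 pairs allow). The slide as a random block was not run for the isozyme shift.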

Other observations

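Outside the purine route, each gene's levels were set relative to its own mean on the reference arrays, so that only the pattern over the 6 arrays counts and not the level. The 5 tested genes closest to the mean of the 10 members on this centred scale were PUL3, PRO3, RPS23B, BET1 and RPS26B. PUL3 was dim, with unscaled signals between 46 and 77 intensity units, while the lowest signal of a member was 3696. PRO3 encodes the reductase of the last step of proline synthesis, BET1 a membrane fusion protein of transport from the endoplasmic reticulum to the Golgi, and RPS23B and RPS26B small-subunit ribosomal proteins with near-identical copies that their probes may not separate. Their root mean square distances from the member mean were between 0.03 and 0.04 on the log2 scale, and their differences, F3 minus reference, were −0.98, −0.97, −0.93, −0.99 and −0.94. For 3 of these genes the value moved with the normalization: RPS23B was at −0.50 with quantile normalization and −0.45 in the authors' deposited table, RPS26B at −0.60 and −0.56, and PUL3 at −0.54 with normexp and quantile normalization. In all, 525 tested genes outside the members lay within 0.2 of the member mean on the centred scale.

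The spots of a member agreed closely within each array: the largest ratio between the 2 spots of a probe was 1.17, for ADE5,7. Spike-in scaling widened the spread between reference arrays, with SDs of the members between 0.35 and 0.53, while their SDs in F3 were at most 0.18.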
